A study of Bos taurus with 64 samples.

Results

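The comparison set 8 stressed cows that were fed an antioxidant supplement on top of a lipid-rich ration against 8 stressed cows fed the lipid-rich ration alone, in 2 muscles. Members were all cows that the labels place in the condition "Moderated stress", split by diet into "Lipid VitE PERP" and "Lipid-rich", so that 16 of the 32 cows and 32 of the 64 arrays of the series were compared. The labels alone chose them and no measured value was used, though earlier results of these data were known. All animals were Normand cull cows, slaughtered at 4.5 years of age after finishing for 101 ± 3 days on straw (30%) and concentrate (70%). Both diets carried 40 g of lipid per kg of dry matter, of which extruded linseed gave 60% and rapeseed 40%, so every cow of the comparison received extra polyunsaturated fatty acids. The antioxidant ration, here the EP diet, added vitamin E and plant extracts rich in polyphenols (PERP). The other ration is called the control diet, and no cow on a ration without the added lipid was part of the study. Before slaughter each stressed cow travelled alone and spent 30 min in a labyrinth on an unfamiliar farm. The other 16 cows, 8 on each diet, were handled with limited stress and serve here only to show whether the diet difference depended on the slaughter condition. Total RNA was measured in Longissimus thoracis (LT), a postural muscle of the back, and in Semitendinosus (ST), a locomotor muscle of the hind limb, both sampled within 15 min after slaughter. Vitamin E and the plant extracts were always given together, and their contributions cannot be told apart.

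Vitamin E is a lipid-soluble antioxidant that sits in membranes and stops the chain reaction by which polyunsaturated fatty acids are peroxidised, and polyphenols can act both as antioxidants and as inducers of the cell's own defence. That defence includes superoxide dismutases, catalase, glutathione peroxidases, peroxiredoxins and the targets of the transcription factor NRF2. Beef muscle is a mixed tissue in which muscle fibres lie beside adipocytes, fibroblasts, vessels and blood cells. Intramuscular adipocytes store lipid and express genes that muscle fibres express weakly or not at all, such as those for adiponectin (ADIPOQ), perilipin (PLIN1) and the adipocyte fatty acid binding protein (FABP4).

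The arrays carried 60-base probes, and a gene could be read by a probe of the catalogue, by a custom set of up to 5 probes, or by both. A transcript below means the probes of 1 such set. Stretches of 30 bases are shown for the transcripts to which the results return most often. For HSPA1L, CIDEA and SIGLEC1, whose small p-values each rest on 1 probe, they are the first 30 bases of that probe. For NOL6, FABP4 and ADIPOQ, each measured by a catalogue probe and by a custom set, the catalogue probe is followed by a custom probe. Capitals mark bases of the longest run that both whole probes share, which can extend beyond the stretch shown.
HSPA1L: tgatcataagagaaaggaattggagcaagt
CIDEA: aggatccaggggctgcacagtgccttccgc
SIGLEC1: aagctggtcacggcaccctatagtgactag
NOL6, catalogue probe: CACAGTCACGTACAGTGGCATAAACTCTTC
NOL6, custom probe: ctcttCACAGTCACGTACAGTGGCATAAAC
FABP4, catalogue probe: gaactCCATGACTTTCTGCTGGATACGTTG
FABP4, custom probe: CCATGACTTTCTGCTGGATACGTTGTCCAA
ADIPOQ, catalogue probe: gtaatGGAAGGATGATAACATTTACTGGGG
ADIPOQ, custom probe: GGAAGGATGATAACATTTACTGGGGAGTTT

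In the HGSC Btau_3.1 assembly named in the array files, the whole HSPA1L probe lies at chr23:27330120-27330179 (plus strand), the CIDEA probe at chr24:44386218-44386277 (plus strand) and the SIGLEC1 probe at chr13:52074654-52074713 (plus strand). The catalogue probe of NOL6 lies at chr8:79352727-79352786 (minus strand), that of FABP4 at chr14:41955301-41955360 (minus strand) and that of ADIPOQ at chr1:82233114-82233173 (minus strand). Over their whole length the 2 probes shown have 55 bases in common for NOL6, 36 for FABP4 and 33 for ADIPOQ, so their values are not independent measurements of a gene.

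No transcript passed the test for diet in the stressed cows. Of 4228 transcripts tested in the mean of both muscles, 0 were called (0%) at an adjusted p under 0.1 in limma, and the lowest adjusted p was 0.564. In LT alone 0 of 4309 (0%) and in ST alone 0 of 4244 (0%) were called, with lowest adjusted p-values of 0.940 and 0.431. The lowest adjusted p varied between fits that left out no cow. For the mean of both muscles it was 0.106 with the cow as a block, and from 0.259 to 0.967 in the other alternatives. Such alternatives reached down to 0.264 in LT and 0.220 in ST. At an unadjusted p under 0.05 for every probe of a transcript, 130 transcripts (3.07%) were higher and 64 (1.51%) lower on the EP diet in the mean of both muscles. The same count gave 113 higher (2.62%) and 61 lower (1.42%) in LT, and 107 higher (2.52%) and 60 lower (1.41%) in ST. Counted by probes, 624 of 10252 (6.09%) were at an unadjusted p under 0.05 in the mean of both muscles, 450 of them higher on the EP diet and 174 lower. That split depended on how arrays were scaled: it was 354 higher and 21 lower when arrays were scaled by their control features, and 356 and 285 after normexp correction and quantile normalization. In ST it turned over, from 415 higher and 184 lower as reported to 111 and 217 without scaling, while in LT it went from 354 and 191 to 459 and 84. Differences are given throughout as log2 units, EP diet minus control diet, with a 95% interval, and "mean of both muscles" is each cow's average over LT and ST after each muscle was centred on the 16 stressed cows.

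The arrays bounded the size of most differences. The median standard error of a probe was 0.129 log2 units with 8 cows a diet, and the 95% interval lay within a 2-fold difference for 9531 of 10252 probes and within 1.5-fold for 7617. In LT alone these counts were 9367 and 6812 of 10439. The median difference over all 4228 transcripts was 0.01, with 2273 above 0 and 1955 below.

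The 16 cows of the comparison did not fall evenly over the array slides. In LT the slides held 2 EP and 3 control arrays, 2 and 0, 2 and 3, and 2 and 2. In ST they held 2 and 0, 2 and 0, 2 and 3, 1 and 0, and 1 and 5, so that only 2 ST slides allowed a comparison of diets within the slide. By scan day, ST held 4 EP and 0 control arrays, 3 and 3, and 1 and 5, and LT held 4 and 3, and 4 and 5. No measure of array quality differed by diet beyond its spread: of 8 exact permutation tests (two-sided, 8 cows against 8) on the 75th percentile, the control features, the share of probes well above background and the flagged spots, the lowest p was 0.185 (adjusted 0.776). The 7 tested muscle fibre genes (ACTA1, CKM, DES, MB, MYH1, MYH7 and TNNT1) were well above background on all arrays of the comparison, and they differed by diet with a median of 0.01, each with an interval within 1.5-fold in the mean of both muscles.

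Among named transcripts lower on the EP diet, HSPA1L had the smallest p. HSPA1L encodes a member of the 70-kDa heat shock proteins that is made chiefly in the testis. In the mean of both muscles its level was −0.64, −0.30 and 0.17 (lowest, median and highest) in the 8 EP cows and −0.32, 0.38 and 0.54 in the 8 control cows. All 8 EP cows lay below the control median, and 7 of 8 control cows lay above the highest EP cow. The difference was −0.61 (95% interval −0.88 to −0.33, SE 0.13), with an unadjusted p of 2.47e-04 and an adjusted p of 0.564. It was −0.68 in LT and −0.53 in ST, and lay between −1.29 and −0.39 within each slide that held both diets. The probe was dim, being well above background on 12 of 16 EP arrays and 16 of 16 control arrays. Without control cow305, which lay at −0.32, the difference was −0.70 and the adjusted p 0.0914, the only setting in which a transcript was called for diet in the stressed cows, and over the other alternatives it stood at 0.221 or above. With normexp correction and quantile normalization the difference was −0.18.

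NOL6, which encodes a nucleolar protein that takes part in making the small ribosomal subunit, was the transcript with the cleanest separation of the diets. Its catalogue probe read −0.80, −0.13 and 0.08 (lowest, median, highest) in the EP cows and 0.09, 0.25 and 0.34 in the control cows in the mean of both muscles. The groups did not overlap, which was so for 1 of 4228 transcripts (0.0237%). The difference was −0.46 (−0.70 to −0.22, SE 0.11), with an unadjusted p of 7.97e-04 and an adjusted p of 0.564. In ST the EP cows lay between −3.99 and −3.34 and the control cows between −3.38 and −2.97 (log2 of the signal relative to the 75th percentile of the array), a difference of −0.43 with an unadjusted p of 2.93e-04 and an adjusted p of 0.431. In LT it was −0.50, with 2 of 8 EP cows above the control median.

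The custom set of NOL6 gave −0.43 in the mean of both muscles, in LT and in ST. Its ST values were −4.88, −4.41 and −4.25 in the EP cows and −4.20, −4.05 and −3.63 in the control cows, the 1 transcript of 4244 (0.0236%) whose groups did not overlap in that muscle. In LT 0 of 4309 transcripts (0%) had groups that did not overlap. The spread of the catalogue probe was unequal between the diets: its SD in the mean of both muscles was 0.30 in the EP cows and 0.09 in the control cows. The 4 other genes of nucleolus and ribosome biogenesis that were measured lay between −0.10 (RRP9) and 0.10 (IMP3). Of 54 cytosolic ribosomal protein genes, 40 were lower and 14 higher on the EP diet, 0 at an unadjusted p under 0.05, with a median of −0.03. RPL37A was the lowest of them, at −0.34, followed by RPL13 at −0.27 over its 6 probes. Control-feature scaling, which shifted the median of all probes to 0.09, placed that median at 0.06, still below it.

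BOLA, a probe for the heavy chain of bovine MHC class I, read −1.10, −0.53 and 0.39 in the EP cows and −0.18, 0.49 and 0.97 in the control cows. All EP cows lay below the control median, and 6 of 8 lay below the lowest control cow. The difference was −0.93 (−1.41 to −0.45), unadjusted p 7.51e-04, adjusted p 0.564, at −0.84 in LT and −1.02 in ST (unadjusted p 2.88e-04, adjusted 0.431). MHC class I genes are near-identical copies that vary between animals, so what this single probe reads is uncertain. Within LT slide 8, with 2 cows a diet, it was 0.52, and within ST slide 9, with 1 EP and 5 control arrays, it was 0.06. Its light chain B2M differed by −0.08 on the catalogue probe and −0.02 on the custom set.

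Other named transcripts lower on the EP diet were dimmer or smaller in size. EGFR, the receptor of epidermal growth factor, differed by −1.07 but was well above background on 7 of 16 EP arrays and 8 of 16 control arrays. Its control cows were spread from −0.62 to 1.92, and its EP cows from −1.05 to −0.12. SDS, serine dehydratase, differed by −0.83 (p 0.00772), ATRN, attractin, by −0.39 (p 0.00195) and SAFB2, a nuclear scaffold attachment factor, by −0.21 (p 0.00715), all with an adjusted p of 0.564. After normexp correction and quantile normalization EGFR stood at −0.29 and SDS at −0.22, and by the control features SAFB2 stood at −0.13. The ATRN set rested on 1 tested probe that was well above background on 7 of 16 EP arrays and 11 of 16 control arrays, and with its dimmer probes included the difference was −0.03.

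**Figure D1:**
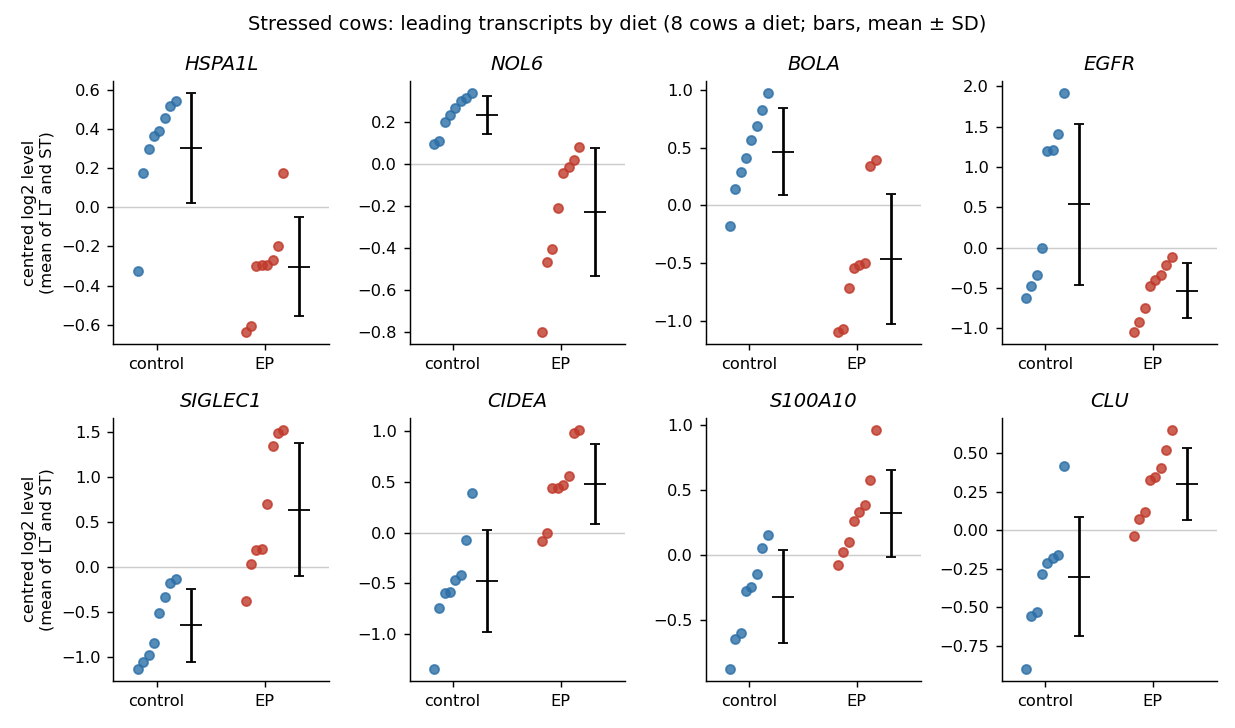
Level of 8 leading transcripts in each stressed cow by diet, as centred log2 values averaged over LT and ST, with bars for the mean ± SD of 8 cows. NOL6 is the 1 panel in which the diets do not overlap, and in HSPA1L a single control cow at −0.32 lies among the EP cows.

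Among named transcripts higher on the EP diet, SIGLEC1 had the smallest p and CIDEA the next. SIGLEC1 encodes sialoadhesin, a surface lectin of macrophages. Its level was −0.38, 0.45 and 1.53 in the EP cows and −1.13, −0.67 and −0.13 in the control cows, with 7 of 8 EP cows above the highest control cow. The difference was 1.28 (0.70 to 1.87), unadjusted p 2.59e-04, adjusted p 0.564. The probe was well above background on 12 of 16 EP arrays and 6 of 16 control arrays, and the difference was 0.19 after normexp correction and quantile normalization. The 1 tested leukocyte marker, PTPRC, the common leukocyte antigen, differed by 0.08.

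CIDEA encodes a protein of the lipid droplet surface that promotes droplet growth in adipocytes. It read −0.08, 0.46 and 1.02 in the EP cows and −1.35, −0.53 and 0.39 in the control cows in the mean of both muscles. All 8 EP cows lay above the control median and 6 lay above the highest control cow. The difference was 0.95 (0.50 to 1.41, SE 0.21), a 1.94-fold higher level, with an unadjusted p of 3.55e-04 and an adjusted p of 0.564. The 2 muscles gave 0.99 and 0.92 in LT and ST.

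CLU encodes clusterin, a secreted chaperone that binds lipids and misfolded proteins. Its level was −0.03, 0.33 and 0.65 in the EP cows and −0.90, −0.25 and 0.42 in the control cows, a difference of 0.60 (0.28 to 0.92), unadjusted p 0.00112. In LT 7 of 8 EP cows lay above the highest control cow, with a difference of 0.66 and an unadjusted p of 5.47e-04. S100A10, a calcium-binding-family protein that pairs with annexin A2 at membranes, differed by 0.64 (unadjusted p 0.00123), and its 8 EP cows all lay above the control median. Its partner ANXA2 differed by 0.30 on the catalogue probe, with 3 of 8 EP cows above the control median. MDFI, an inhibitor of myogenic transcription factors, differed by 1.29 (0.54 to 2.04), CYP2D6, a cytochrome P450, by 0.36 (0.16 to 0.57) and FABP7, a fatty acid binding protein best known from brain, by 0.76 (0.33 to 1.19). FABP7 stood at 0.32 in LT and 1.21 in ST, and was dim, with its 8 EP cows in ST spread from −7.82 to −5.51 relative to the 75th percentile. After normexp correction and quantile normalization FABP7 stood at 0.10 and MDFI at 0.83.

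Transcripts without a gene name reached larger differences than any named gene. These are given because their size stood out once the values were seen. Probe A_73_120319 read −3.64, −2.55 and 1.65 in the EP cows and −2.57, 2.18 and 2.59 in the control cows in the mean of both muscles. It was well above background in 3 of 8 EP and 7 of 8 control arrays of each muscle. Low and high values thus occurred on both diets, and the groups overlapped. The difference was −3.09 (−4.94 to −1.23), unadjusted p 0.00273, adjusted p 0.564. The custom set Target1681 read −0.81, 0.97 and 2.52 in the EP cows and −2.90, −0.73 and 0.24 in the control cows, a difference of 1.87 (0.80 to 2.93), unadjusted p 0.00247, adjusted p 0.564.

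Genes of lipogenesis and adipose tissue were mostly higher on the EP diet, and none passed the test. Of 21 measured genes on that list, 17 were higher and 4 lower on the EP diet, with a median of 0.28 beside 0.01 over all transcripts. An unadjusted p under 0.05 was reached by 8 genes higher and 0 lower, beside 3.07% of all transcripts higher and 1.51% lower. The list and its main genes were chosen with earlier results of these data known. The 8 were FABP4, ADIPOQ, CIDEA, DGAT2, FASN, PLIN1, PCK1 and ACLY. In a muscle sample, more adipocytes and more RNA of these genes per adipocyte cannot be told apart.

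FABP4, which carries fatty acids within adipocytes, had the largest difference of the list. Over its 6 probes the EP cows read 0.18, 0.67 and 1.38 and the control cows −1.96, −0.51 and 1.05. All EP cows lay above the control median, and 7 of 8 control cows lay below the lowest EP cow. The difference was 1.49 (0.65 to 2.34, SE 0.40), unadjusted p 0.00326, at 1.26 in LT and 1.73 in ST. ADIPOQ, the adipocyte hormone adiponectin, read −0.10, 0.36 and 1.59 in the EP cows and −2.16, −0.39 and 0.72 in the control cows. Its difference was 1.17 (0.37 to 1.96), unadjusted p 0.00821, at 1.09 in LT and 1.24 in ST, and it was 0.47 after normexp correction and quantile normalization. PLIN1, which coats the lipid droplet of adipocytes, differed by 0.89 (0.30 to 1.49), and its groups overlapped, with 3 of 8 EP cows above the highest control cow.

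The enzymes of fat synthesis on the list had differences of like sign and unequal size. FASN, fatty acid synthase, read −0.71, 0.42 and 1.16 in the EP cows and −1.22, −0.50 and 0.23 in the control cows, with 6 of 8 EP cows above the highest control cow and a difference of 0.90 (0.28 to 1.53). DGAT2, which makes the last step of triacylglycerol synthesis, differed by 0.92 (unadjusted p 0.0093) and PCK1, which supplies glycerol in adipocytes, by 0.89 (unadjusted p 0.0162). ACLY, which supplies acetyl-CoA for lipogenesis, differed by 0.45 (unadjusted p 0.0174), and SCD, which desaturates fatty acids, by 0.58 (unadjusted p 0.0877). The regulators were closer to 0. PPARG, the master transcription factor of adipocytes, stood at 0.39 (−0.06 to 0.83), CEBPA, its partner in adipocyte differentiation, at 0.24 and SREBF1, which drives lipogenic genes, at −0.25. LPL, which frees fatty acids from lipoproteins and is also made by muscle fibres, stood at −0.15, and FABP5, a binding protein of many cell types, at −0.28.

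**Figure D2:**
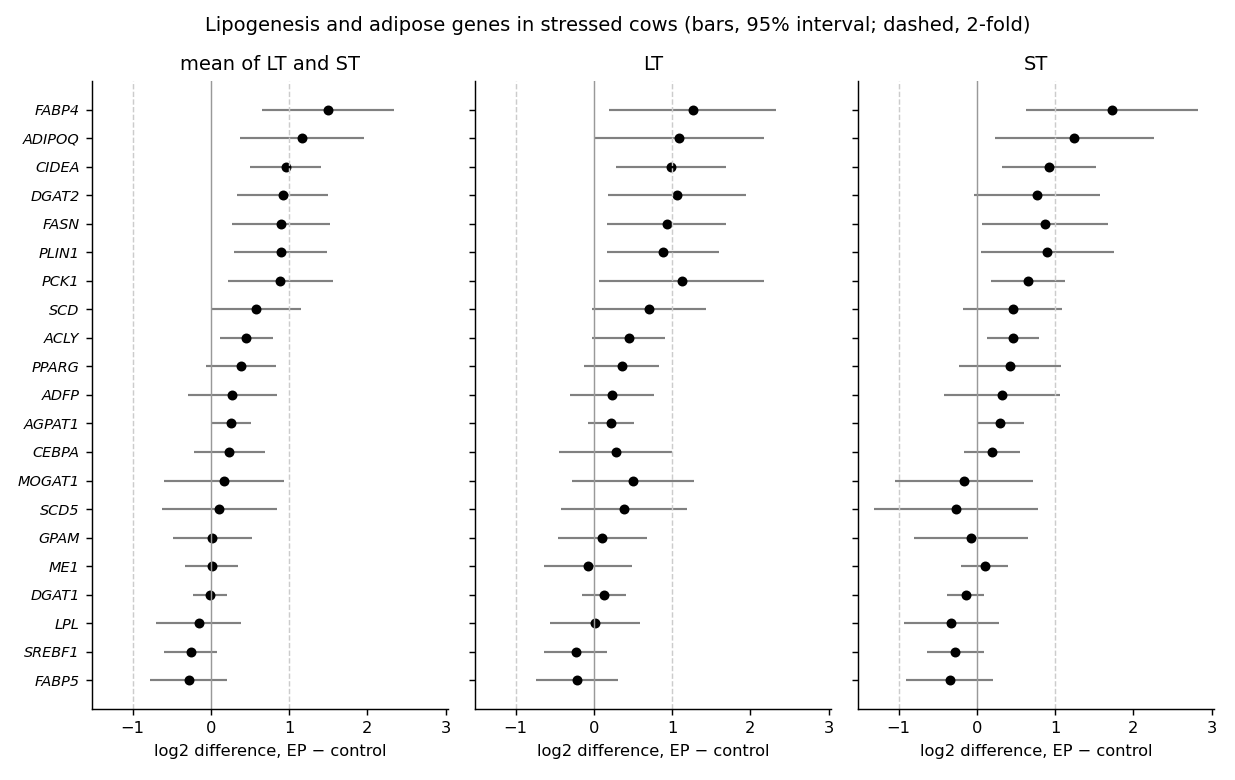
Log2 difference, EP diet minus control diet, of the 21 lipogenesis and adipose genes in the mean of both muscles, LT and ST, with 95% intervals and dashed lines at 2-fold. FABP4, ADIPOQ and CIDEA stand highest in the mean of both muscles, from 0.95 to 1.49, and FABP5 lowest at −0.28.

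Adipocyte markers were higher too, and the 4 tested are also genes of the list. ADIPOQ, CIDEA, FABP4 and PLIN1 were tested, each higher at an unadjusted p under 0.05 (beside 3.07% of all transcripts), with a median of 1.06. LEP, the gene of leptin, was well above background on 0 of the 32 arrays. Averaged over the 4 markers, the level per cow was 0.03, 0.45 and 1.17 (lowest, median and highest) in the EP cows and −1.49, −0.42 and 0.68 in the control cows. Fibroblast markers pointed the same way with less separation: the 5 tested (COL1A1, COL1A2, COL3A1, DCN and LUM) were all higher on the EP diet, with a median of 0.49 and 0 at an unadjusted p under 0.05. Their level per cow ranged from −0.34 to 0.81 in the EP cows and from −1.26 to 0.72 in the control cows. PECAM1, the 1 tested endothelial marker, differed by −0.04, and the 3 satellite cell markers had a median of 0.01. The part of the adipocyte and fibroblast content of the samples in the differences was not tested.

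The slide on which an array was run bore on these counts. With slide as a block, 17 of the 21 genes were still higher, with a median of 0.41, but 1 rather than 8 was at an unadjusted p under 0.05, and of the 4 adipocyte markers 1 rather than 4 (median 0.95). With scan day as a block the counts were 5 of 21 and 4 of 4. Within slides the CIDEA difference was 0.35, 1.32 and 1.16 in LT, and 1.38 and 0.24 in ST. The FABP4 catalogue probe gave 0.77, 1.77 and 0.59 in LT, and 2.63 and 0.81 in ST, above 0 on each slide that held both diets. Leaving out each cow in turn left 7 to 9 of the 21 genes at an unadjusted p under 0.05 in the mean of both muscles. The single muscles were less stable. In LT 4 of the 21 genes were at that level, beside 2.62% of all transcripts higher. The count was 2 without any one of control cow260, cow265, cow297 and cow305 and EP cow269, cow299 and cow330. It was 7 without control cow301 or cow311 or EP cow324. In ST 6 were, beside 2.52% of all transcripts higher, but 3 without control cow297, EP cow258 or EP cow299. Of the 4 adipocyte markers, 2 rather than 4 reached it without any one of these cows or control cow265. With slide as a block the counts of the 21 genes were 2 in LT and 3 in ST. After normexp correction and quantile normalization 2 of the 21 genes and 2 of the 4 markers remained in ST. Without scaling, or with scan day as a block, 3 of the 21 did. Control-feature scaling gave 7 in LT. For the mean of both muscles, normexp correction and quantile normalization left 7 of the 21 genes and 4 of the 4 markers, with medians of 0.15 and 0.71.

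Genes of the matrix that fibroblasts lay down were mostly higher as well. Of 27 extracellular matrix genes, 21 were higher and 6 lower on the EP diet, with a median of 0.18, and 2 were higher at an unadjusted p under 0.05 (3.07% of all transcripts). These were FN1, fibronectin, at 0.59 (0.15 to 1.04) over 41 probes and TIMP2, an inhibitor of matrix metalloproteinases, at 0.31 (0.08 to 0.54), with all 8 EP cows of both genes above the control median. LUM, the proteoglycan lumican, stood at 0.65, the collagen genes COL3A1 and COL6A3 at 0.57 and 0.55, and THBS1, thrombospondin, at −0.56. LUM stood at 0.36 with array weights and THBS1 stood at −0.29 with slide as a block.

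No antioxidant gene, the group closest to the supplement's known chemistry, passed the test for diet. Of 29 measured antioxidant enzymes and NRF2 targets, 14 were higher and 15 lower on the EP diet, with a median of −0.00. At an unadjusted p under 0.05, 1 of the 29 was higher, near the 3.07% of all transcripts that were. For 27 of the 29 the 95% interval lay within 2-fold, and for 22 within 1.5-fold. The gene at an unadjusted p under 0.05 was SOD3, the extracellular superoxide dismutase. It read −0.14, 0.22 and 0.44 in the EP cows and −1.09, −0.10 and 0.31 in the control cows. Its difference was 0.36 (0.03 to 0.69), unadjusted p 0.0323, adjusted p 0.739, with 7 of 8 EP cows above the control median.

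The intracellular enzymes had narrow intervals around 0. SOD1, the cytosolic superoxide dismutase, differed by −0.02 (−0.28 to 0.24), and CAT, catalase, by −0.04 (−0.21 to 0.14). GPX4, the glutathione peroxidase that reduces lipid peroxides in membranes, differed by 0.07 (−0.17 to 0.30). PRDX1, a peroxiredoxin induced by NRF2, stood at 0.06, and FTH1, the ferritin heavy chain that stores iron, at −0.00. Wider intervals were found for NQO1, a quinone reductase and classical NRF2 target, at 0.22 (−0.04 to 0.48), and for GPX3, the secreted glutathione peroxidase, at −0.23 (−0.80 to 0.34). CYBA, a subunit of the superoxide-producing NADPH oxidase, stood at 0.33, and UCP3, a mitochondrial carrier of muscle, at −0.33 (−0.09 with array weights). Scaling by the control features moved the median of the list to 0.08, near the shift of all probes.

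**Figure D3:**
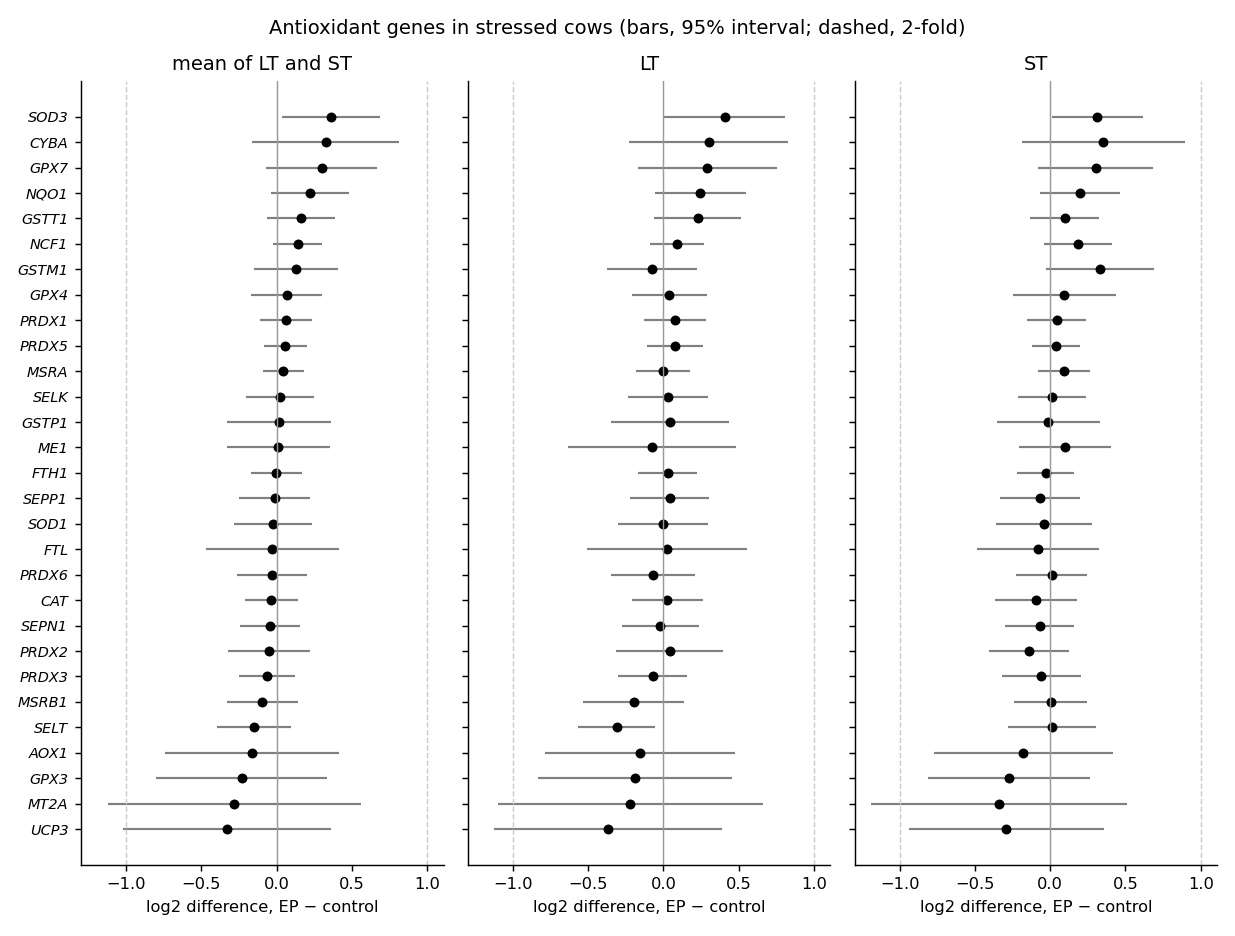
Log2 difference, EP diet minus control diet, of the 29 antioxidant enzymes and NRF2 targets in the mean of both muscles, LT and ST, with 95% intervals and dashed lines at 2-fold. SOD3 stands at the top with 0.36 in the mean of both muscles, while SOD1, CAT and GPX4 lie within 0.07 of 0.

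Genes that take up and handle vitamin E and lipoproteins were few on the array. Of 6 tested, 3 were higher and 3 lower, with a median of 0.02 and 0 at an unadjusted p under 0.05. APOE, a lipoprotein component also made by macrophages, stood at 0.49. Of 7 genes of lipoxygenase, cyclooxygenase and polyunsaturated fatty acid metabolism, 6 were higher, with a median of 0.15 and 0 at an unadjusted p under 0.05. The largest was PTGES, which makes prostaglandin E, at 0.47, followed by FADS2, the delta-6 desaturase, at 0.29. They stood at 0.10 and 0.17 after normexp correction and quantile normalization.

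Fat-burning and respiratory genes leaned the other way by small amounts in the mean of both muscles. Of 20 genes of fatty acid uptake and oxidation, 15 were lower and 5 higher, with a median of −0.07. In ST 18 of the 20 were lower (median −0.22), 2 of them at an unadjusted p under 0.05, beside 1.41% of all transcripts. In LT 11 were lower and 9 higher (median −0.05). The gene-wise difference, LT minus ST, had a median of 0.15 and was above 0 for 17 of the 20. At an unadjusted p under 0.05 it held 0 genes, or 1 (FABP3) with the cow as a block. ACADM, an acyl-CoA dehydrogenase of mitochondria, was at −0.25 (−0.47 to −0.04, unadjusted p 0.0498) in the mean of both muscles. There it was the 1 gene of the list at an unadjusted p under 0.05, beside 1.51% of all transcripts lower. PDK4, the kinase that turns off glucose oxidation in fasting and stress, stood at −0.73 (−1.56 to 0.11), with EP cows from −1.66 to 0.45 and control cows from −0.88 to 1.81. PDK4 was at −1.15 in ST (−2.19 to −0.11, unadjusted p 0.0469, adjusted 0.823) and at −0.30 in LT (−1.11 to 0.51). Among 68 genes of the respiratory chain and ATP synthase, 53 were lower and 15 higher, with a median of −0.04, 0 at an unadjusted p under 0.05, and each interval within 1.5-fold. By the control features, which add the same amount to every gene, their medians were 0.01 and 0.04, still below the 0.09 of all probes.

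Heat shock proteins and chaperones were also mostly below 0. Of 34 measured, 26 were lower and 8 higher, with a median of −0.07 and all intervals within 2-fold. HSPA1L and HSF2, a heat shock transcription factor at −0.41 (unadjusted p 0.0417), were the 2 lower at an unadjusted p under 0.05 (1.51% of all transcripts). HSPA1A, the stress-inducible 70-kDa protein, stood at −0.08 (−0.39 to 0.22), HSPH1, its nucleotide exchange factor, at −0.29, and DNAJA1, a co-chaperone, at −0.32. With scan day as a block HSPH1 stood at −0.15 and DNAJA1 at −0.19. By the control features the median of the list was 0.01. Of 16 genes that the study listed as responding to stress in both muscles, a list chosen on these samples, 10 were lower and 6 higher, with 0 at an unadjusted p under 0.05 in the mean of both muscles and a median of −0.08 (0.00 by the control features). In ST 1 of the 16, PDK4, was lower at that level, where 1.41% of all transcripts were. ATF3 and FOS, transcription factors of the immediate response, stood at −0.28 and 0.34.

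The remaining lists held single genes that stood apart. VCAM1, the adhesion molecule by which vessels capture leukocytes, read −0.13, 0.23 and 0.79 in the EP cows and −1.19, −0.28 and 0.33 in the control cows, a difference of 0.62 (0.19 to 1.05), unadjusted p 0.00795. It was the 1 of 12 genes of cytokines and inflammation at an unadjusted p under 0.05, beside 3.07% of all transcripts higher. On that list 8 were higher and 4 lower, with a median of 0.08. Of 17 genes of muscle proteolysis, 13 were higher, with a median of 0.12. The median of the proteolysis list was 0.20 with control-feature scaling.

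Of 30 genes of glycolysis and glycogen, 21 were higher, with a median of 0.05 and 0 at an unadjusted p under 0.05. In the mean of both muscles 11 slow-fibre genes had a median of −0.01 and 9 fast-fibre genes 0.01, the former with medians of opposite sign in LT and ST. PVALB, the calcium buffer of fast fibres, stood at 1.22 with an interval of −0.45 to 2.90, its EP cows spread from −2.20 to 2.38 and its control cows from −3.40 to 1.97. MYL6B, a slow-type myosin light chain, stood at 0.84 (−0.09 to 1.78) and CSRP3, a muscle LIM protein, at −0.45. PVALB stood at 0.74 after normexp correction and quantile normalization, and CSRP3 at −0.30 with scan day as a block.

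**Figure D4:**
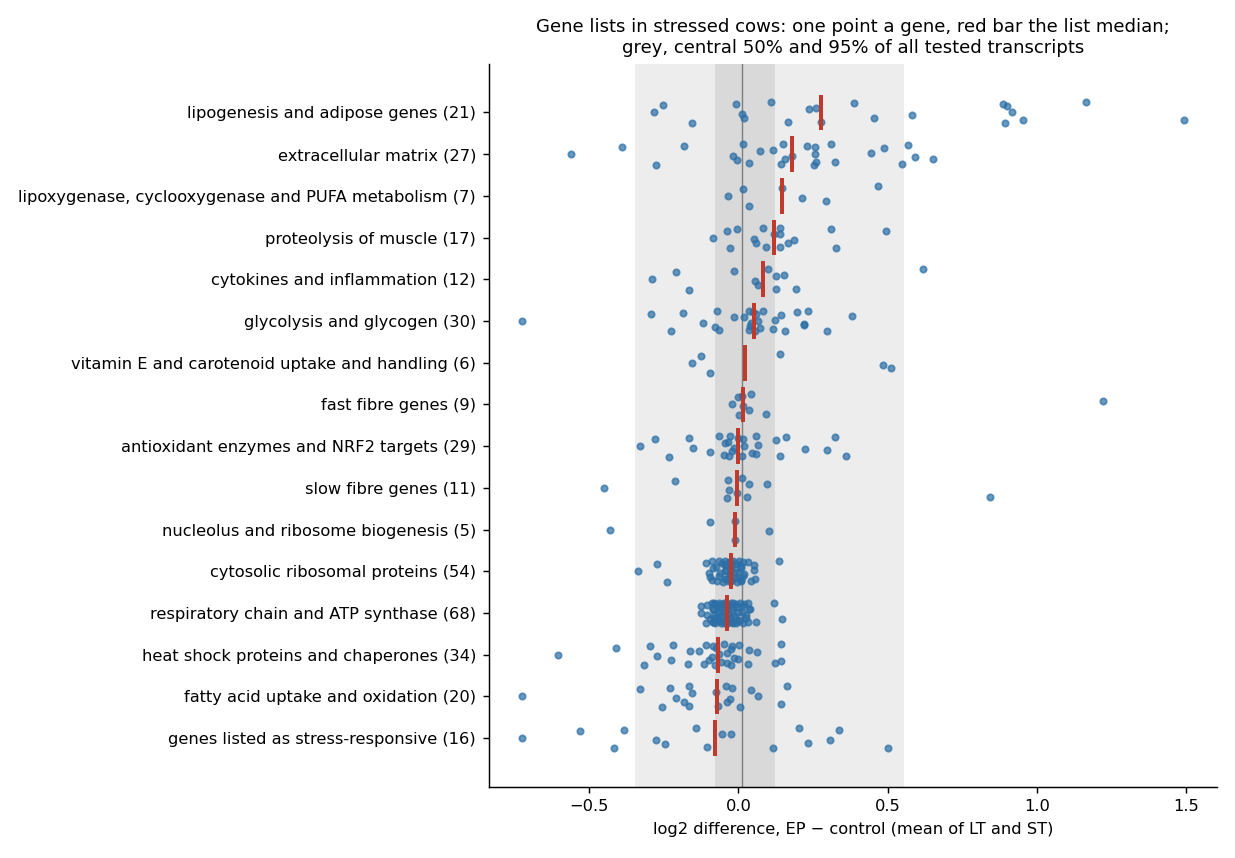
Log2 difference, EP diet minus control diet, in the mean of both muscles for each measured gene of 16 lists, with the number of genes in parentheses, a red bar at the list median, and grey bands for the central 50% and 95% of all 4228 transcripts. The lipogenesis and adipose list has the highest median, 0.28, and the stress-listed genes the lowest, −0.08.

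The diet difference was also set against muscle. Whether LT and ST differed in it was tested directly, and 0 of 4228 transcripts (0%) passed, with a lowest adjusted p of 0.9997. At an unadjusted p under 0.05 for every probe there were 20 transcripts (0.473%), and 58 probes. That count became 296 probes with the cow as a block, which fits the design in that each cow gave both muscles, and the lowest adjusted p was then 0.998. CTRC, a digestive protease of the pancreas, differed by 0.40 in ST (unadjusted p 6.13e-04) and by 0.02 in LT. Its 8 EP cows in ST all lay above the control median, and the ST difference was 0.04 after normexp correction and quantile normalization. VCL, the focal adhesion protein vinculin, stood at −0.51 in ST and −0.19 in LT, NOD2, an intracellular sensor of bacteria, at −1.11 in LT and −0.39 in ST, and ITGA2B, a platelet integrin, at 0.40 in LT and 0.13 in ST. NOD2 and ITGA2B stood at −0.31 and 0.25 in LT after normexp correction and quantile normalization, and VCL at −0.27 in ST with scan day as a block. For none of these did the difference between muscles pass after adjustment.

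Slow-fibre genes and genes of mitochondria and ribosomes were mostly lower on the EP diet in ST but not in LT. Of the 11 slow-fibre genes 10 were higher in LT, with a median of 0.13, and 9 were lower in ST, with a median of −0.14. The gene-wise difference, LT minus ST, had a median of 0.28 and was above 0 for 9 of 11. MYL6B, at 0.99 (0.21 to 1.76), was the 1 slow-fibre gene at an unadjusted p under 0.05 in LT, beside 2.62% of all transcripts higher there. It stood at 0.70 in ST. Of the 68 respiratory genes 64 were lower in ST, with a median of −0.09, and 45 were higher in LT, with a median of 0.02. The LT median of all transcripts was 0.02 as well, so the respiratory genes did not stand above it there. Of the 54 ribosomal protein genes 50 were lower in ST (median −0.09) and 44 higher in LT (median 0.04). The median differences, LT minus ST, were 0.10 and 0.13. Diets fell unevenly over the ST slides and scan days. The part of these in the ST medians of the 3 lists, and of the fatty acid list, was not tested. In none of the 3 lists was a gene at an unadjusted p under 0.05 for the difference between muscles without the cow in the fit. With the cow as a block, 83 of 4228 transcripts (1.96%) were at that level, among them 2 of the 54 ribosomal protein genes (RPS3 and RPS7, at −0.21 and −0.18 in ST) and 0 of the respiratory and slow-fibre genes. The median of all probes in ST was 0.02 as reported, 0.14 with control features and −0.07 without scaling. These scalings add the same amount to every gene. They can thus change the sign of a list median but not its distance from the median of all probes. Of the adipose list 18 of 21 genes were higher in LT, with a median of 0.39, and 14 of 21 in ST, with a median of 0.32.

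Cows handled with limited stress received the same diets, which allowed a test of whether the diet difference depended on stress. No transcript passed it: 0 of 4228 (0%) in the mean of both muscles, 0 of 4309 (0%) in LT and 0 of 4244 (0%) in ST, with lowest adjusted p-values of 0.991, 0.9999 and 0.972. At an unadjusted p under 0.05 for every probe there were 127 (3%), 81 (1.88%) and 144 (3.39%) transcripts. The control cows of the 2 conditions were different animals. Without stressed control cow260, 1 transcript, OMD, which encodes a matrix proteoglycan, was called in ST (difference of the diet effects 1.38, adjusted p 0.0561, and at 0.790 or above over the other alternatives).

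The transcripts that led in the stressed cows had other values in the cows handled with limited stress. HSPA1L differed there by 0.18 (−0.21 to 0.56), and the difference between the conditions was −0.78, unadjusted p 0.0018 and adjusted p 0.991. NOL6 differed by −0.06, so that the conditions were apart by −0.40 (unadjusted p 0.0163). S100A10 stood at 0.05 and EGFR at −0.05 in the limited-stress cows. BOLA, by contrast, stood at −1.16 with an interval of −3.08 to 0.76, and CLU at 0.32 (−0.04 to 0.68), both with the sign they had in the stressed cows. Since the stressed-cow values chose these transcripts, a smaller value in the other cows is a description and not a test.

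Adipose genes were mostly higher in the limited-stress cows too. There 18 of the 21 genes were higher on the EP diet, with a median of 0.13, and 0 were higher at an unadjusted p under 0.05, where 0.568% of all transcripts were. SREBF1, at −0.32 (unadjusted p 0.0284), was the 1 gene of the list lower at that level, beside 76 of 4228 transcripts. FABP4 differed by 0.62, ADIPOQ by 0.50, CIDEA by 0.30 and PLIN1 by 0.28. The difference between the conditions had a median of 0.24 over the list and reached an unadjusted p under 0.05 for 0 of 21 genes. SOD3 stood at −0.03 in the limited-stress cows.

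**Figure D5:**
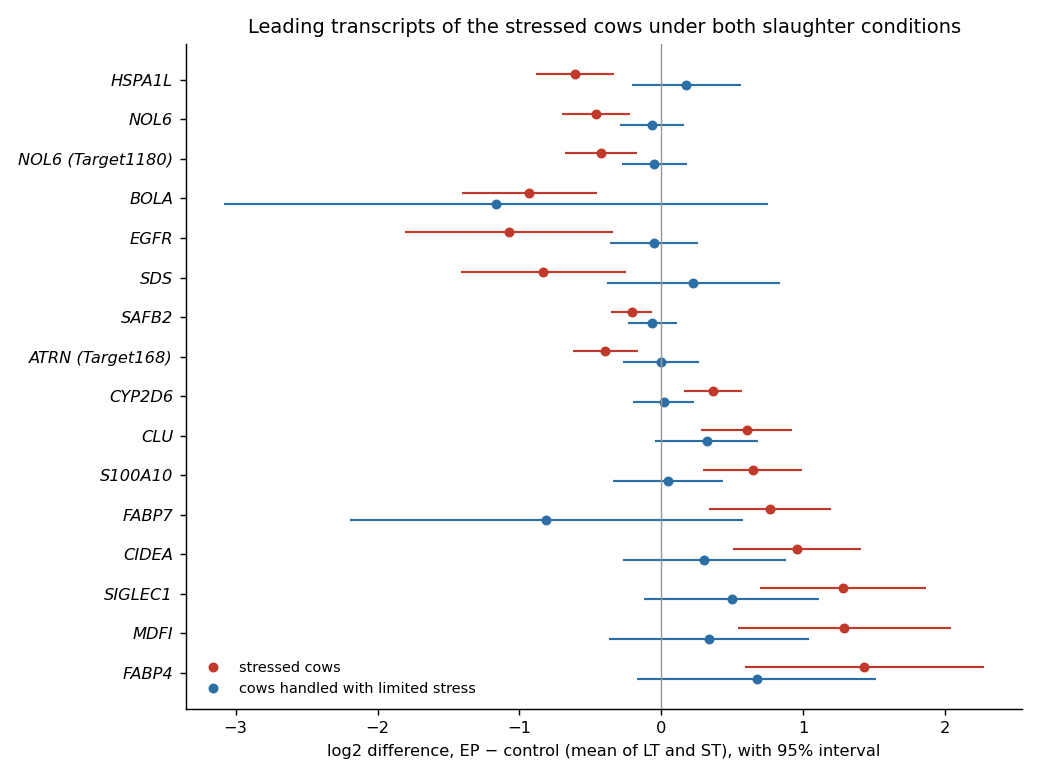
Log2 difference, EP diet minus control diet, with its 95% interval, of the 16 leading transcripts of the stressed cows (red) and of the same transcripts in the cows handled with limited stress (blue), in the mean of both muscles. HSPA1L stands at −0.61 and 0.18, CIDEA at 0.95 and 0.30, and BOLA at −0.93 and −1.16, the last with the widest interval in the limited-stress cows.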

How the data were processed

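RNA of LT and ST was hybridised to 1-colour Agilent arrays and read by the authors with Feature Extraction 10.1.1.1, and the deposited values are processed signal intensities (background-subtracted). The deposited series table held the same intensities. Replicates are separate cows. From 13285 probes in 5449 transcripts, log2(intensity / 75th percentile of the array) was computed, with spots of a probe averaged. The methods' scale, the median of the control features, lay near background (2.11 to 6.36 against 75th percentiles of 2470 to 4202) and served as an alternative. A probe entered a fit when 11 or more of a muscle's 32 arrays flagged it as well above background, and was tested with limma 3.58.1 in R 4.3.3, with Benjamini-Hochberg adjustment over all probes. A transcript was called when 80% of its tested probes were at an adjusted p under 0.1 with one sign, as in the methods. Intervals are 95%. For muscle differences and for stressed against limited-stress cows, all arrays of the groups entered one fit. Each cow's LT and ST deviations correlated by 0.19 to 0.71, so cows pair the muscles.

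Of the transcripts, 2476 took a symbol from the files, 20 from RefSeq accessions, 868 from sharing at least 25 bases with a named probe, and 2085 had none. Text names the 8 named transcripts higher and 8 lower with the smallest p in the mean of both muscles, 4 and 4 in each muscle alone, NOL6, and up to 4 genes with the largest difference per list, with others given for background. The members and lists were chosen with earlier results of these data known. Scripts were tested on simulated data. Fits were repeated with other scalings, filters, blocks for slide and scan day, array weights, a fit of all 4 groups, and without each cow. Values of some list genes are not reported here.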

Additional observations from a re-analysis of the deposited data

Results flagged for a closer look

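Of 122 groups of 8 cows, 11 held a highest or lowest cow whose gap to the next exceeded Dixon's critical share of the range, which chance alone exceeds in about 5% of groups. Control cow321 gave 5 of the 11. In LT it had 88 flagged spots, with the next array at 29. In the mean of both muscles it lay at 0.58 in the NOL6 custom set (next 0.27), 1.41 in ADFP, a lipid droplet protein (next −0.02), −1.20 in GPAM, an enzyme of triacylglycerol synthesis (next −0.19), and −2.31 in MOGAT1, another such enzyme (next −0.24). Control cow305 lay at −0.32 in HSPA1L in the mean of both muscles (next 0.18) and at 1.42 in CLU in LT (next 2.04). Control cow265 lay at 1.18 in FABP5 in the mean of both muscles (next 0.32). Control cow301 lay at −4.70 in ITGA2B in LT (next −4.18), and control cow260 at −2.04 in S100A10 in ST (next −2.56). The control features of the LT array of control cow311 had a median of 6.36 (next 3.64). All 11 were control cows.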

How the results depend on the processing

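Under the alternatives run, 0 transcripts were called for diet in the stressed cows, except HSPA1L without control cow305, and 0 in the tests of differences, except OMD in ST without control cow260, so calls ranged from 0 to 1 over left-out cows in those comparisons and were 0 in the others. Probes at an unadjusted p under 0.05, over left-out cows, ranged from 521 to 844 (mean of both muscles), 380 to 769 (LT), 452 to 865 (ST) and 28 to 137 (LT against ST), and for stressed against limited-stress cows from 339 to 548, 214 to 372 (LT) and 437 to 635 (ST). Scaled by the control features these counts were 375, 203, 300, 8, 78, 115 and 81. Without scaling they were 328 (ST), 134 (LT against ST) and 296 (ST, stressed against limited-stress cows). For LT against ST, 103 came without a filter on dim probes, 38 with probes above background on every array, 300 with slide and 360 with scan day as a block. The cow as a replicate block gave 296 there and changed no other call. For 96 differences of named genes, with some genes entered more than once, 2564 values came from alternatives. Of these, 2549 kept their sign and their side of the threshold, which no difference passed in the main fit. The 2 that kept their sign and passed it are entries of the same HSPA1L fit, without control cow305. The other 13 turned sign, these being NPM1 (0.071 by control features, 0.00535 with slide, 0.00554 with scan day, and −0.025 to 0.0041 over left-out cows, above 0 without control cow265, EP cow269 and EP cow330), SELP (0.16 with slide, and −0.38 to 0.020 over left-out cows, above 0 without EP cow269), ATP2A1 (−0.0079 with slide), ENO3 (−0.033 with scan day), MSTN (−0.030 with array weights, and −0.026 to 0.63 over left-out cows, below 0 without control cow321) and IMP3 (−0.050 to 0.16 over left-out cows, below 0 without control cow321). The cause was not tested. Low signal over background limits HSPA1L, SIGLEC1, EGFR, FABP7 and ATRN.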
